A study of Mus musculus with 6 samples.

Results

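The 34 genes described here are Trp53, which encodes the transcription factor p53, the genes that control p53, and a set of its known target genes. They were listed by name, with earlier results of these data known, and matched by Ensembl identifier. All 34 were among the 21485 genes shared by the count matrices of 6 cell populations. The populations were mouse muscle-derived stem/progenitor cells (MDSPCs), 3 from young and 3 from old animals, each profiled as 1 library by droplet single-cell RNA sequencing of the 3′ ends of transcripts. MDSPCs are the slowly adhering cells left after repeated replating of dissociated skeletal muscle on collagen-coated flasks, and all 6 populations were grown in the same serum-rich proliferation medium. The young populations are named Y1-1, PtC5 and FT-QU (replicates 1, 2 and 3), and the old ones O1-1, NA-f2 and NA-f3 (replicates 1, 2 and 3). They are called young 1 to 3 and old 1 to 3 below. The labels call them biological replicates and give no age, sex, strain, genotype or passage number, and they do not say how many animals a population came from.

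The p53 protein binds DNA as a tetramer and switches on genes after DNA damage, oncogene activity or ribosomal stress. Its own messenger RNA usually says little about its activity, because the protein is mostly controlled by its breakdown: Mdm2 marks p53 for degradation and is itself a p53 target, which closes a feedback loop. Targets then halt the cell cycle (Btg2, Gadd45a), kill the cell (Bax, Pmaip1, Fas), repair DNA (Xpc) or alter metabolism (Sesn1, Sesn2). In skeletal muscle, p53 has been studied in the survival, cell cycle exit and differentiation of muscle stem cells.

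A p53 binding site consists of 2 copies of a 10-base half-site. Promoter windows from 250 bases before to 50 bases after the transcription start, from RefSeq on build GRCm38.p6, were available for 26 of the 34 genes. The half-site, searched without mismatch on both strands, occurred in the windows of 10 of these 26 genes (38.46%), compared with 2582 of 27025 genes in the whole table (9.554%). A near-complete site had at most 2 mismatches over both half-sites and at most 2 bases between them. No mismatch was allowed at the C and the G that every half-site holds. Such a site occurred in 2 members (7.692%), Bax and Ccng1, and in 1.169% of all genes. Shown here are the matches for the 5 members whose match lies outside their own annotated gene, with that of Cdkn1a, the best known p53 target, which is not a member. Each is read 5′ to 3′ on the gene's strand, with the half-site in capitals.
Mdm2: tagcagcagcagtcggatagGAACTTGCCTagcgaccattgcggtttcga
Ccng1: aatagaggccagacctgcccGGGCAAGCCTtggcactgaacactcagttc
Bax: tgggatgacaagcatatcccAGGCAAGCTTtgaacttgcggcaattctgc
Ppm1d: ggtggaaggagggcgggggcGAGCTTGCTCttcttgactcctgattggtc
Trp53: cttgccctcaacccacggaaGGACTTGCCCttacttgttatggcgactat
Cdkn1a: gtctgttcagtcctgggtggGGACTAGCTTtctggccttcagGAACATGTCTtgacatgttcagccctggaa

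On GRCm38.p6 the Mdm2 stretch is chr10:117710915-117710964 (minus strand), with the half-site beginning 186 bases before the start. The Ccng1 stretch is chr11:40755442-40755491 (minus strand, 185 bases before) and the Ppm1d stretch chr11:85311102-85311151 (plus strand, 132 bases before). The Trp53 stretch is chr11:69580264-69580313 (plus strand, 75 bases before) and the Cdkn1a stretch chr17:29090886-29090957 (plus strand, 73 and 51 bases before). None of these 5 overlaps an annotated gene in GENCODE vM21. The Bax stretch, chr7:45467070-45467119 (minus strand, 201 bases before), overlaps the predicted gene Gm45808 but none of its exons. The near-complete site of Ccng1 has 1 mismatch and no base between its half-sites, that of Bax 2 mismatches and 1 base, and that of Cdkn1a 1 mismatch and no base. The other members with a half-site were Aen, Ei24, Gadd45a, Polk and Sesn1, whose matches lie within their own annotated genes. A match is a description of the letters in the window, and its absence says nothing about p53, which also binds inside introns and far from promoters.

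The filters left 61673 of 62849 barcodes as cells, between 8674 and 12541 per population, with a median depth of 13001 to 19951 unique molecular identifiers (UMIs, tags that let each RNA molecule be counted once). Levels are summed UMIs per population, scaled to a common library total (CPM) with TMM factors and not divided by transcript length, so they are compared within a gene only. Any pair of populations shared 23 to 35 cell barcodes, or 0.2365% to 0.3689% of the smaller. The 8 myogenic marker genes together ranged from 176 CPM (young 3) to 3615 CPM (old 3), while endothelial, immune and glial markers summed to at most 1.24, 9.76 and 2.58 CPM. Fibro-adipogenic markers summed to 265 to 436 CPM in the young and 185 to 334 CPM in the old populations. Gsn and Col3a1 gave most of that, and Smoc2 was at 103 CPM in young 2 against 1.18 to 17.1 CPM elsewhere. Pdgfra and Dcn were below 1.9 CPM throughout, and Lum was at 0 in 5 populations. Smooth muscle and pericyte markers summed to 3.80 to 71.9 CPM in the young and 3.85 to 40.9 CPM in the old populations. Their highest sums were nearly all Notch3 (68.6 CPM in young 2 and 40.2 CPM in old 2), while Rgs5 was highest in young 3 (9.55 CPM), Myh11 was at most 1.00 CPM and Kcnj8 was at 0 in 3 populations. The cycling share, that is, cells called S or G2/M from their expression, was 46.9%, 57.7% and 85.6% in young 1 to 3 and 78.3%, 34.5% and 63.3% in old 1 to 3, among cells thinned to 5000 UMIs (46.0%, 55.0%, 85.5%, 78.0%, 33.2% and 62.6% without thinning). Young 1 and old 1 were counted with another software version and a shorter gene list than the other 4, and the gene list is therefore a term of the model.

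With TMM scaling, p53 itself was expressed at a similar level in every population. Trp53 (ENSMUSG00000059552, chromosome 11, 69580359 to 69591873, plus strand) was at 140, 156 and 161 CPM in young 1 to 3 and at 147, 140 and 145 CPM in old 1 to 3. The young mean was 152 ± 10.8 CPM and the old mean 144 ± 3.57 CPM (SD, n = 3 each), and the log2 fold change, old over young, was -0.08 (SE 0.19). The highest population was 1.15-fold above the lowest. In old 2 the genes of chromosome 11 lay 0.36 (log2, median) above their mean over all populations, old 2 included. With each chromosome's shift subtracted, Trp53 in old 2 was at 109 CPM and the lowest of the 6, and young 3 the highest at 173 CPM. With library totals in place of TMM factors it ranged from 119 CPM (young 1) to 174 CPM (young 3).

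Mdm2, the ubiquitin ligase that degrades p53, differed more. Mdm2 (ENSMUSG00000020184, chromosome 10, 117688875 to 117710758, minus strand) was at 199, 55.5 and 66.6 CPM in young 1 to 3 and at 306, 146 and 159 CPM in old 1 to 3. Young 2 and young 3 lay below every old population, but young 1 lay above old 2 and old 3. The log2 fold change of 1.09 (SE 0.25) had an edgeR unadjusted p of 0.00524 and an adjusted p of 1, and so did not pass 0.05. The DESeq2 alternative called it (adjusted p = 0.0121), and the value stayed between 0.92 and 1.32 in all settings run. Among the 2 populations on the shorter gene list the old level was 1.54-fold the young one, and among the 4 on the longer list 2.50-fold.

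The other regulators of p53 overlapped between young and old. Mdm4, a relative of Mdm2 that blocks p53 without degrading it, was at 17.1, 32.4 and 34.5 CPM in young 1 to 3 and 28.6, 25.9 and 39.9 CPM in old 1 to 3. The log2 fold change of Mdm4 was 0.23 (SE 0.28). Ppm1d, a phosphatase that reverses p53 activation, was at 10.3, 11.0 and 15.3 CPM in young 1 to 3 and 14.2, 15.4 and 16.3 CPM in old 1 to 3. Ccng1, which encodes cyclin G1 and recruits a phosphatase to Mdm2, was at 355, 127 and 153 CPM in young 1 to 3 and 242, 350 and 240 CPM in old 1 to 3. Ccng1 was thus highest in young 1 and nearly as high in old 2. Its old level was 0.68-fold the young one on the shorter list and 2.10-fold on the longer list, so the 2 gene lists gave opposite directions. Ccng1 lies on chromosome 11, like Trp53, and its value in old 2 was 273 CPM with the chromosome shift subtracted.

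**Figure D1:**
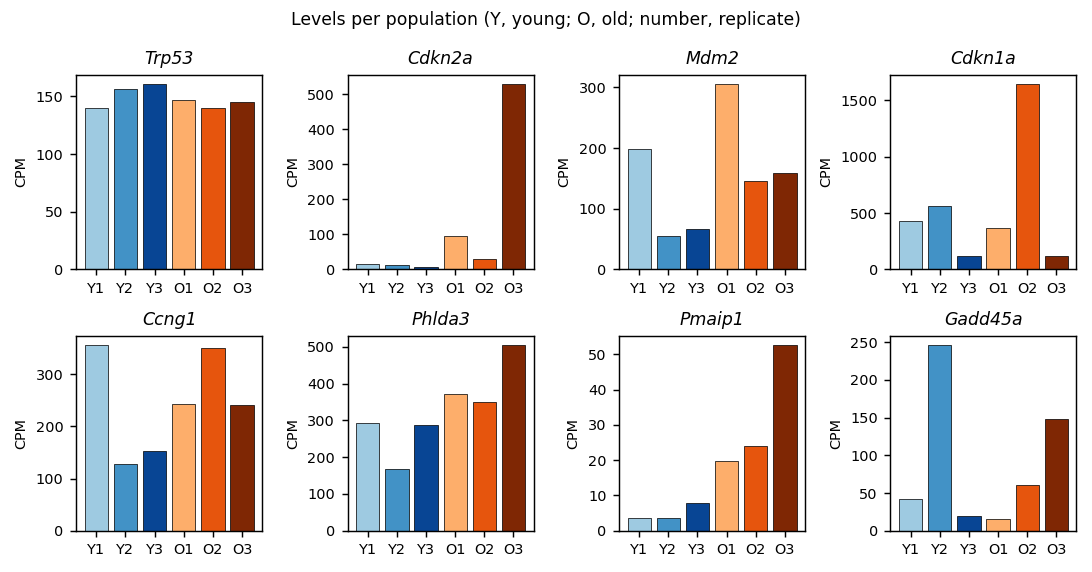
TMM-scaled level in CPM (vertical axes, each starting at 0) of Trp53, of Cdkn2a and Mdm2, which control p53 protein, and of 5 target genes in the 3 young (blue) and 3 old (orange to brown) populations, 1 bar per population. Trp53 stays between 140 and 161 CPM, Mdm2 is lowest in young 2 and young 3, and Phlda3 and Pmaip1 are higher in every old population than in any young one.

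Among the 10 members that act on arrest and growth, 3 had no overlap between young and old, each higher in old, as were 3.63% of all genes. Phlda3 (ENSMUSG00000041801, chromosome 1, 135766119 to 135769136), which restrains Akt signalling, was at 292, 169 and 286 CPM in young 1 to 3 and 371, 349 and 505 CPM in old 1 to 3. Its means were 249 ± 69.7 and 408 ± 84.1 CPM (SD, n = 3 each; log2 fold change 0.72, SE 0.32, edgeR unadjusted p = 0.0672). Btg2, an antiproliferative factor, was at 28.0, 19.5 and 13.9 CPM in young 1 to 3 and 37.6, 37.0 and 98.2 CPM in old 1 to 3. The old 3 value of Btg2 was the highest by a wide gap (log2 fold change 1.5, SE 0.53, edgeR unadjusted p = 0.0326). That value ranged from 0.84 to 2.01 over the alternatives, and the old level was 1.34-fold the young one on the shorter list and 4.04-fold on the longer. Zmat3, an RNA-binding protein, differed little in size: 45.2, 33.3 and 39.6 CPM in young 1 to 3 and 48.7, 48.5 and 55.5 CPM in old 1 to 3 (log2 fold change 0.38, SE 0.21). None of the 3 passed adjustment over all genes (edgeR adjusted p = 1 each).

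Gadd45a, a stress sensor that binds cell cycle and repair proteins, varied widely between populations of the same age. It was at 42.5, 246 and 19.7 CPM in young 1 to 3 and at 15.2, 60.7 and 149 CPM in old 1 to 3. Young 2 and old 3 were the highest, and they also held the largest shares of Myog-positive cells (below). The sign of its fold change (log2 -0.72, SE 0.92) was not stable over the settings run, which gave values from -1.34 to 0.61. Trp53inp1, a p53 cofactor with a role in autophagy, was at 24.3, 24.2 and 13.5 CPM in young 1 to 3 and 21.8, 26.7 and 27.5 CPM in old 1 to 3, lowest in young 3.

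Gdf15, a secreted stress cytokine, spanned the widest range of the arrest group and was singled out after its values were seen. It was at 50.2, 2.07 and 3.73 CPM in young 1 to 3 and at 27.0, 202 and 50.2 CPM in old 1 to 3, 97.4-fold between lowest and highest. On the longer list the old level was 43.4-fold the young one, but on the shorter list it was 0.54-fold. The log2 fold change was 3.97 (SE 1.92) and ranged from 2.24 to 5.44 over all settings, with an edgeR adjusted p of 1 and a DESeq2 adjusted p of 0.0423. The kinases Plk2 and Plk3 and the sestrins Sesn1 and Sesn2, which respond to oxidative stress and restrain mTOR, all overlapped between young and old. Their log2 fold changes were 0.63, 0.18, -0.60 and 0.53 (SE 0.35, 0.45, 0.37 and 0.41). Each of them ran in opposite directions on the shorter and the longer list. Over all settings Plk3 ranged from -0.25 to 0.45, while the others kept their sign.

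The cell death members held the largest difference between young and old without overlap. Pmaip1 (ENSMUSG00000024521, chromosome 18, 66458533 to 66465565, plus strand) encodes Noxa, a BH3-only protein that neutralises Mcl-1. It was at 3.56, 3.59 and 7.86 CPM in young 1 to 3 and at 19.9, 23.9 and 52.6 CPM in old 1 to 3. The lowest old population was thus above the highest young one, with a young mean of 5.00 ± 2.48 and an old mean of 32.1 ± 17.8 CPM (SD, n = 3 each). The log2 fold change of 2.65 (SE 0.46) had an edgeR unadjusted p of 0.00144 and an adjusted p of 0.617, and so was not called. DESeq2 called it (adjusted p = 5.4e-05), and over all settings the value ranged from 2.24 to 3.00. The old level was 5.59-fold the young one on the shorter list and 6.68-fold on the longer.

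Fas, the death receptor, also had no overlap, with 5.03, 3.21 and 1.79 CPM in young 1 to 3 and 8.72, 10.5 and 6.46 CPM in old 1 to 3 (log2 fold change 1.44, SE 0.44, edgeR unadjusted p = 0.0181, adjusted p = 1). Bax, the pore-forming effector of mitochondrial cell death, did not separate the groups. It was at 1175, 1051 and 1178 CPM in young 1 to 3 and 828, 1326 and 1855 CPM in old 1 to 3, so that old 1 was the lowest of all and old 3 the highest (log2 fold change 0.18, SE 0.30). Over all settings the Bax fold change ranged from -0.07 to 0.51. Its old level was 0.70-fold the young one on the shorter list and 1.43-fold on the longer. The tightness of the 3 young values (SD 72.6 CPM) was not seen in the old ones (SD 514 CPM), a difference in spread that was not tested.

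Perp and Eda2r were singled out after their values were seen. Perp, a membrane protein of desmosomes and p53-driven death, was at 0.309, 0.192 and 5.22 CPM in young 1 to 3 (35, 37 and 1067 UMIs) and at 35.3, 36.2 and 4.60 CPM in old 1 to 3 (5914, 6718 and 793 UMIs). It was high in old 1 and old 2, intermediate in young 3 and old 3, and near 0 in young 1 and young 2 (log2 fold change 4.02, SE 1.71, edgeR unadjusted p = 0.0595). Over all settings that value ranged from 2.91 to 6.77. Eda2r, a receptor of the tumour necrosis factor family on the X chromosome, was at 19, 21.4 and 11.1 CPM in young 1 to 3 and 20.9, 62.6 and 42.1 CPM in old 1 to 3. Genes of the X chromosome in old 2 lay 0.76 (log2, median) above their mean over all populations, and Eda2r there was at 36.8 CPM with that shift subtracted. The part of this shift in the Eda2r level was otherwise not tested. The remaining death members were Aen, Ei24, Apaf1, Bbc3 and Tnfrsf10b, whose groups overlapped, with log2 fold changes from -0.03 (Apaf1) to 0.55 (Tnfrsf10b).

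The repair members had 1.81-fold (Xpc) to 2.77-fold (Ercc5) between their lowest and highest population, and all overlapped between young and old. Xpc, which recognises DNA damage, was at 11.7, 10.9 and 11.1 CPM in young 1 to 3 and 11.5, 11.9 and 6.60 CPM in old 1 to 3, lowest in old 3. Ddb2, its partner in damage recognition, the translesion polymerase Polk and Rrm2b, a subunit of ribonucleotide reductase, had log2 fold changes of 0.09, 0.12 and 0.10 (SE 0.33, 0.20 and 0.36). The nuclease Ercc5 had 0.62 (SE 0.23, edgeR unadjusted p = 0.0383, adjusted p = 1).

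Of the metabolic members, Ephx1 and Dcxr, enzymes of epoxide and sugar metabolism, were lowest in young 2 (2.68 and 4.11 CPM). In the other 5 populations Ephx1 was between 14.8 and 60.2 CPM and Dcxr between 14.2 and 44.4 CPM. Steap3, an iron reductase, was instead highest in young 2 at 25.2 CPM, compared with 6.70 to 15 CPM elsewhere. Fdxr, which passes electrons to mitochondrial cytochromes, stayed between 7.37 and 11.5 CPM. The plot of levels by population shows these spreads for every member.

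**Figure D2:**
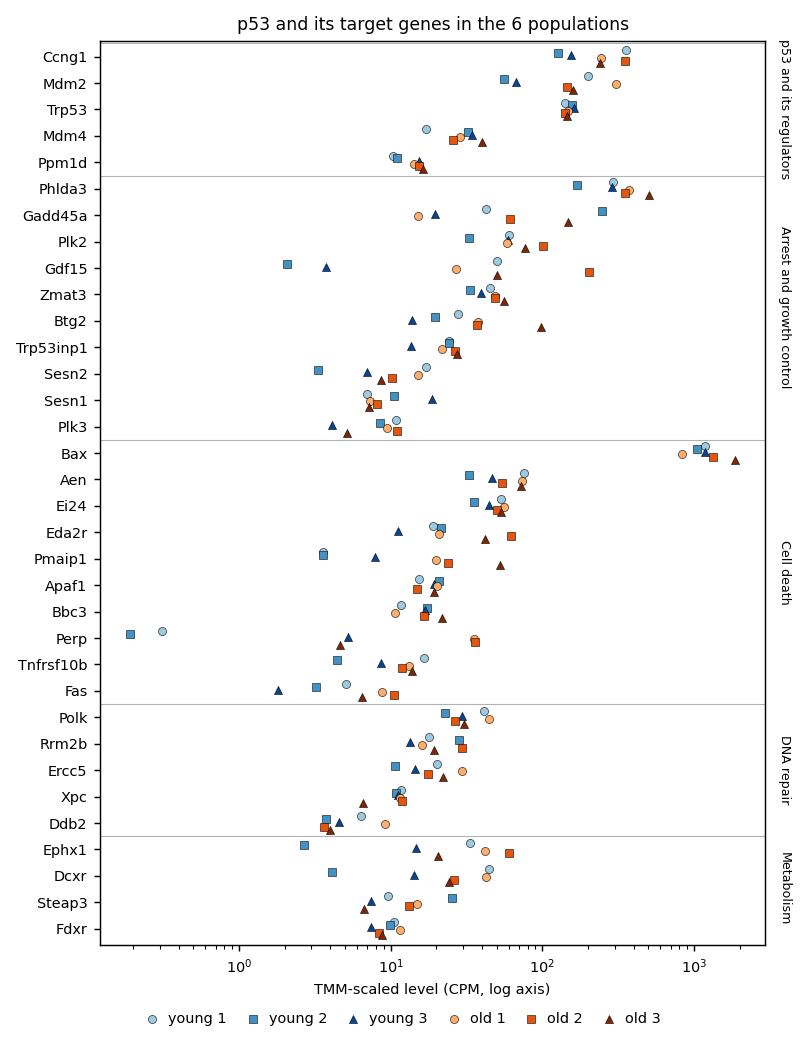
TMM-scaled level in CPM (horizontal log axis) of the 34 members in 6 populations, 1 symbol per population, grouped by role and ordered by mean level within a role. Trp53, Apaf1 and Fdxr hold close together, Gdf15 and Perp spread furthest, and young 2 (blue square) is often leftmost.

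Over all 14512 genes tested, edgeR called 1 between old and young (0.00689%), and 0 of the 34 members. At an unadjusted p under 0.05 it found 512 genes (3.53%), among them 6 members: Mdm2, Pmaip1, Fas, Btg2, Ercc5 and Eda2r, each with a higher mean in old. DESeq2 called 180 genes higher (1.24%) and 39 lower (0.269%) in old, and 3 members, all higher: Mdm2, Pmaip1 and Gdf15. The biological coefficient of variation between populations, left after the terms for gene list and group, was 0.563. An exact permutation test on a single gene cannot go below p = 0.1 with 3 against 3 populations. Values for a bulk of cells do not tell more cells of a kind from more RNA per cell.

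The fold changes leaned one way. For 28 of the 34 members the log2 fold change was above 0, as for 48.9% of all genes tested, and the median was 0.35 for the members and -0.01 for all genes. Some other lists had a higher median: 7 of 8 myogenic markers (median 0.45) and 7 of 9 immediate early and stress genes (median 0.44) were also above 0. Others leaned down. Above 0 were 7 of 20 genes that act upstream of p53 (median -0.19). Of the genes used to call S and G2/M, 14 of 43 and 13 of 54 were above 0 (medians -0.12 and -0.13). The myogenic markers were all higher in old on the longer gene list. On the shorter list all but Myf5 were lower in old, from -2.47 (Myog) to -0.05 (Myod1) in log2. Myf5 was at 0.00883 CPM in young 1 and 10.8 CPM in old 1. The groups did not overlap for 5 members, compared with 6.05% of all genes in either direction. All 5 were higher in old (Phlda3, Zmat3, Pmaip1, Fas and Btg2), as were 3.63% of all genes. No member was lower in old without overlap (2.42% of all genes). With library totals in place of TMM factors, the count of 5 became 10 (5.02% of all genes), adding Trp53inp1, Eda2r, Ei24, Plk2 and Ercc5. That scaling moved the median fold change of all genes to 0.07. In G1-called cells alone the count was 7 (3.47% of all genes), adding Perp and Plk2. Perp separated there only narrowly, with young 3 at 5.48 CPM and old 3 at 5.55 CPM. With chromosome shifts subtracted the same 5 members remained (3.48%). On both gene lists taken apart, 13 of 34 members (38.24%) were higher in old on each, compared with 20.65% of all genes. On the shorter list alone 20 members were higher and on the longer list 25, and 19 had opposite signs on the 2 lists, as did 8560 of the 14512 genes. No promoter window with a half-site belonged to these 5 members: those of Phlda3, Fas and Btg2 had none, and those of Zmat3 and Pmaip1 were not analysed here.

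**Figure D3:**
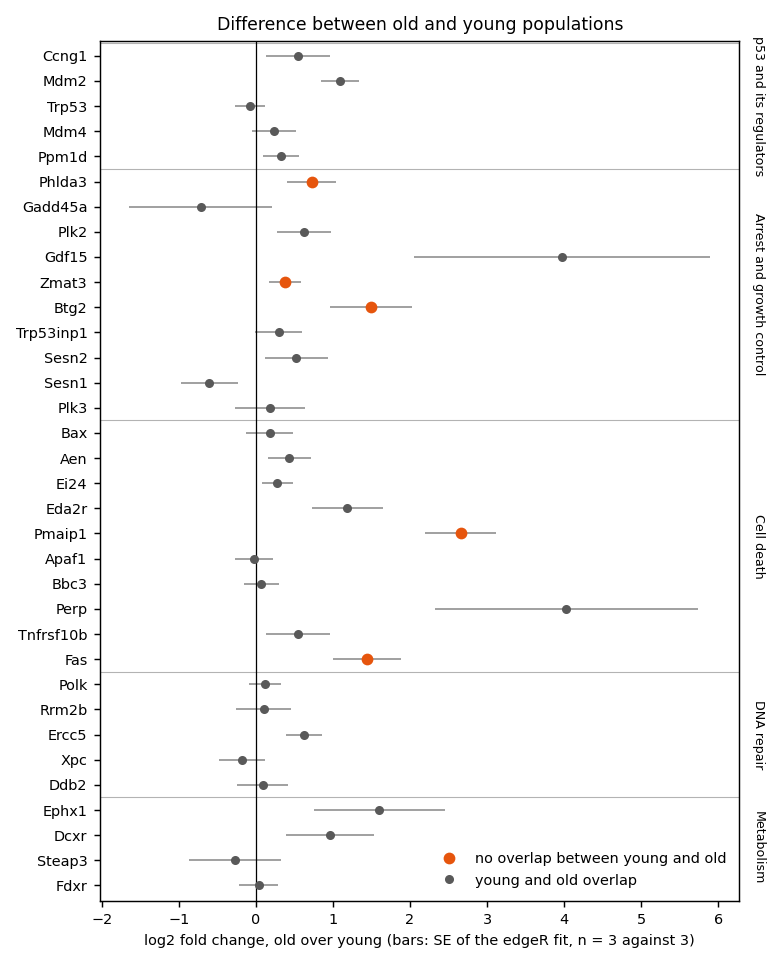
Log2 fold change, old over young, of each member (points) with its SE from the edgeR fit (bars, 3 against 3 populations), grouped by role. Most points lie right of 0, the 5 members without overlap are orange, and the widest bars belong to Gdf15 and Perp, whose levels differ most within a group.

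No member followed a single population by the rule used, which asked for a range above 1 on the log2(CPM + 0.5) scale and for a gap between the extreme population and the next above 5/8 of that range. Xpc (low in old 3, gap 0.848 of its range) and Trp53inp1 (low in young 3, gap 0.673) met the second condition only, with ranges of 0.81 and 0.99. Sesn1 (high in young 3, range 1.37) just missed it with a gap of 0.596. Over all genes, 3.89% stood apart high and 1.13% low. The low end nevertheless gathered in 1 population. Young 2 was the lowest of the 6 for 15 of 34 members (44.12%), compared with 17.37% of all genes, among them Mdm2, Ccng1, Phlda3, Gdf15, Perp, Ephx1 and Dcxr. Young 2 also had the highest level of the fibro-adipogenic markers Smoc2 and Col3a1 and of Notch3, and the highest sum of fibro-adipogenic markers (436 CPM). The other markers of these lists went elsewhere. Pdgfra was lowest in young 2, and Gsn was highest in old 2, Dcn and Lum in old 3, Rgs5 in young 3, Myh11 in old 1 and Kcnj8 in young 1. The immediate early and stress genes of young 2 summed to 3122 CPM, against 184 to 360 CPM elsewhere, of which Jun was 2974 CPM, against 72.7 to 140.1 CPM. The part of these differences in the members' levels was not tested. The high end was shared, with old 2 and old 3 each highest for 9 members (26.47%, against 18.22% and 14.33% of all genes). Without young 2, the median log2 fold change of the members was 0.28, the lowest over the populations left out in turn. Without young 1, old 1 or all of the shorter list it was 0.52, the highest. These settings all take the difference from the longer-list populations alone, because the gene list term fits a single shorter-list population exactly. They are therefore not separate checks.

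Within populations, p53 RNA was higher in cycling cells. Cells called S or G2/M were compared with G1-called cells of the same population. Trp53 was at 123, 117 and 122 CPM in G1-called cells of young 1 to 3 and at 121, 115 and 106 CPM in those of old 1 to 3. In cycling cells it was at 153, 184, 167, 156, 181 and 164 CPM in the same order, higher in 6 of 6 populations. The log2 fold change was 0.51 (SE 0.06, edgeR adjusted p = 5.87e-05). Ppm1d rose by a like amount, 0.54 (SE 0.05, edgeR adjusted p = 3.32e-05), and was higher in 6 of 6.

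Gadd45a moved the other way. It was at 60.4, 365, 33.5, 30.9, 76.8 and 226 CPM in G1-called cells of young 1 to 3 and old 1 to 3, and at 24.0, 184, 18.0, 11.8, 32.6 and 114 CPM in cycling cells. It was lower in cycling cells of all 6 populations (log2 fold change -1.14, SE 0.07, edgeR adjusted p = 2.42e-06). Trp53inp1 (-0.65, SE 0.13, edgeR adjusted p = 0.00286) and Xpc (-0.54, SE 0.06, edgeR adjusted p = 0.00011) were also lower in 6 of 6. Cdkn1a, whose product p21 halts the cycle, was lower in cycling cells of all 6 populations too (-0.68, SE 0.17, edgeR adjusted p = 0.0129). The edgeR call for Cdkn1a was lost with no low-count filter (edgeR adjusted p = 0.0542).

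Of the 34 members, 13 rose and 7 fell in cycling cells, and 14 were not called. Over the 13351 genes tested, 23.1% rose and 29.9% fell. Cycling cells were deeper, with a median of 14102 to 21228 UMIs against 11528 to 19338 in G1-called cells. With every cell thinned to 5000 UMIs, 11 members rose and 7 fell, beside 2733 and 3546 of all genes, in place of 3082 and 3986. At an absolute log2 fold change of 0.5 or more, the members called were Trp53 and Ppm1d (9.68% of all genes higher) and Gadd45a, Trp53inp1 and Xpc (9.5% lower). The regulators Trp53, Mdm2 and Ppm1d rose, and in the arrest group 2 rose (Phlda3, Gdf15) and 4 fell (Gadd45a, Trp53inp1, Plk2, Plk3). Of the death members 5 rose (Bax, Aen, Ei24, Apaf1, Tnfrsf10b) and only Eda2r fell. Among the repair genes Polk and Ddb2 rose and Xpc and Rrm2b fell, and of the metabolic genes Fdxr rose. With S-called cells alone against G1, 7 members rose and 8 fell, beside 2961 and 4065 of all genes. Mdm2 (0.17), Phlda3 (0.04), Bax (0.03), Ei24, Tnfrsf10b, Fdxr and Plk3 were then not called and Plk2 turned to 0.057, while Ccng1 (-0.22, edgeR adjusted p = 0.00424), Perp (-0.36) and Ephx1 (-0.36) were called lower. With G2/M-called cells alone against G1, 13 members rose and 6 fell, beside 2893 and 3862 of all genes. Gdf15 (0.16, edgeR adjusted p = 0.265), Tnfrsf10b (0.17) and Eda2r (-0.21) were then not called, while Mdm4 (0.19) and Zmat3 (0.17) were called higher. In every alternative 10 of the 20 calls held: Trp53, Ppm1d, Aen, Apaf1, Polk, Ddb2, Gadd45a, Trp53inp1, Xpc and Rrm2b. For Mdm2 (0.28, SE 0.09, edgeR adjusted p = 0.024) the call was lost without young 1 (0.24), old 2 (0.25) or old 3 (0.23). It was lost for Bax without old 3 (0.12), for Plk2 without old 1 or old 2 (-0.12 each) and for Gdf15 without young 3 (0.42), old 2 (0.42) or old 3 (0.40). Eda2r lost it without young 2 (-0.16), young 3 (-0.26), old 2 or old 3 (-0.21 each). Tnfrsf10b lost it without any one population except old 2 (0.15 to 0.18). On the longer list alone Mdm2, Bax, Plk2, Fdxr and Tnfrsf10b lost their calls. DESeq2 did not call Bax or Tnfrsf10b, and edgeR with RLE in place of TMM scaling did not call Bax. Thinning ended the calls of Fdxr and Tnfrsf10b, and leaving out the low-count filter those of Plk2 and Tnfrsf10b.

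The cycling contrast was not shown to differ between old and young for any gene (0 of 13351 called by edgeR, 290 at an unadjusted p under 0.05, 2.17%). Ddb2 was the member under that level. Its contrast was 0.47 larger in old (log2, edgeR unadjusted p = 0.0142, adjusted p = 1).

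A second contrast within populations was added after the values were seen, because Gadd45a ran with the share of Myog-positive cells. Myog encodes myogenin, which marks muscle cells that have begun to differentiate. At 5000 UMIs per cell, 3.54%, 20.3% and 5.26% of cells in young 1 to 3 and 0.727%, 14.6% and 46.1% in old 1 to 3 had at least 1 Myog UMI (4.89%, 29.4%, 10.1%, 1.15%, 22.4% and 56.0% without thinning). RNA free in the droplets can add such UMIs to cells that do not express the gene, and no cell type lacking Myog was at hand to measure it. Only G1-called cells were compared, so that the cycle differed less between the classes. Of the genes used to call S and G2/M, 21 of 43 and 25 of 54 were still lower in Myog-positive cells (list medians -0.40 and -0.47). On the same lists 4 and 2 were higher, compared with 16.5% of all genes higher and 21.6% lower. The part of this remaining cycle difference in the changes below was not tested. The Myog-positive class held 254, 1367 and 120 cells in young 1 to 3 and 43, 1127 and 2594 cells in old 1 to 3.

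Trp53 fell in Myog-positive cells and Gadd45a and Cdkn1a rose. Trp53 was at 124, 128 and 123 CPM in Myog-negative cells of young 1 to 3 and at 124, 118 and 132 CPM in those of old 1 to 3. In Myog-positive cells it was at 77.0, 92.9, 103, 63.3, 88.7 and 88.2 CPM in the same order, lower in 6 of 6 (log2 fold change -0.54, SE 0.09, edgeR adjusted p = 0.000874). Gadd45a rose from 53.7, 323, 24.6, 27.9, 60.6 and 102 CPM to 175, 476, 160, 211, 133 and 326 CPM (1.74, SE 0.36, edgeR adjusted p = 0.0127). Cdkn1a rose by 2.04 (SE 0.30, edgeR adjusted p = 0.00399), from 105 to 1559 CPM in Myog-negative cells to 255 to 3733 CPM in Myog-positive ones.

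Of the 10 death members 2 rose and 4 fell in Myog-positive cells, compared with 16.5% and 21.6% of all genes, and Aen, Ei24, Fas and Tnfrsf10b were not called. Pmaip1 rose, from 2.19, 3.34, 8.84, 20.3, 21.4 and 31.5 CPM to 9.18, 9.17, 16.8, 33.4, 33.7 and 67.2 CPM in young 1 to 3 and old 1 to 3 (1.10, SE 0.16, edgeR adjusted p = 0.000628). In both classes every old population remained above every young one. Eda2r rose (0.98, SE 0.21, edgeR adjusted p = 0.00787), while Perp (-1.64, SE 0.22, edgeR adjusted p = 0.000281), Apaf1, Bax and Bbc3 fell. All 4 metabolic members fell, with the largest changes for Ephx1 (-1.28, SE 0.12, edgeR adjusted p = 5.63e-05) and Dcxr (-1.03, SE 0.10, edgeR adjusted p = 7.05e-05).

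Over all members, 3 rose and 14 fell in Myog-positive cells, compared with 16.5% and 21.6% of the 12142 genes tested. Of the fibro-adipogenic markers 0 rose and 4 of 5 fell (Pdgfra, Col3a1, Gsn and Smoc2, list median -1.32), and their part in the members' fall was not tested. The other members that fell were Zmat3, Sesn2, Trp53inp1, Plk3, Polk, Fdxr and Steap3. Of these 17 calls, 12 held in every alternative. Those of Bbc3, Plk3, Steap3, Trp53inp1 and Eda2r were lost in at least 1. In cells of all phases, not G1 alone, none of these 5 was called: Trp53inp1 went from -0.44 to -0.12, Eda2r from 0.98 to 0.65, Bbc3 to -0.27, Plk3 to -0.38 and Steap3 to -0.28. Leaving out 1 population ended the call of Bbc3 (without young 1 -0.35, young 2 -0.32, old 2 -0.27 or old 3 -0.35), Plk3 (without old 2 -0.61 or old 3 -0.62) and Steap3 (without old 3 -0.45). Mdm2 had -0.40 (SE 0.16, edgeR adjusted p = 0.0771) and was called only without young 3 (-0.48), in cells of all phases (-0.39) and by DESeq2 (-0.39). With library totals in place of TMM factors, edgeR called 1578 genes higher and 3495 lower, compared with 2005 and 2627, and 3 and 16 members. That scaling moved the median of all genes from -0.07 to -0.14.

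This contrast, too, was not shown to differ between old and young for any gene (0 of 12142 called by edgeR, 315 at an unadjusted p under 0.05, 2.59%). In 2 members, Fas and Rrm2b, it had 1 sign in every young and the other in every old population, as in 88 of all genes (0.725%). The members under that level were Fas, Ercc5, Mdm2, Pmaip1 and Rrm2b. For Mdm2 the difference, old minus young, was -0.63 (log2, edgeR unadjusted p = 0.0214), and for Pmaip1, which rose in all 6 populations, it was -0.62 (edgeR unadjusted p = 0.045). Neither passed adjustment (edgeR adjusted p = 1 each).

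**Figure D4:**
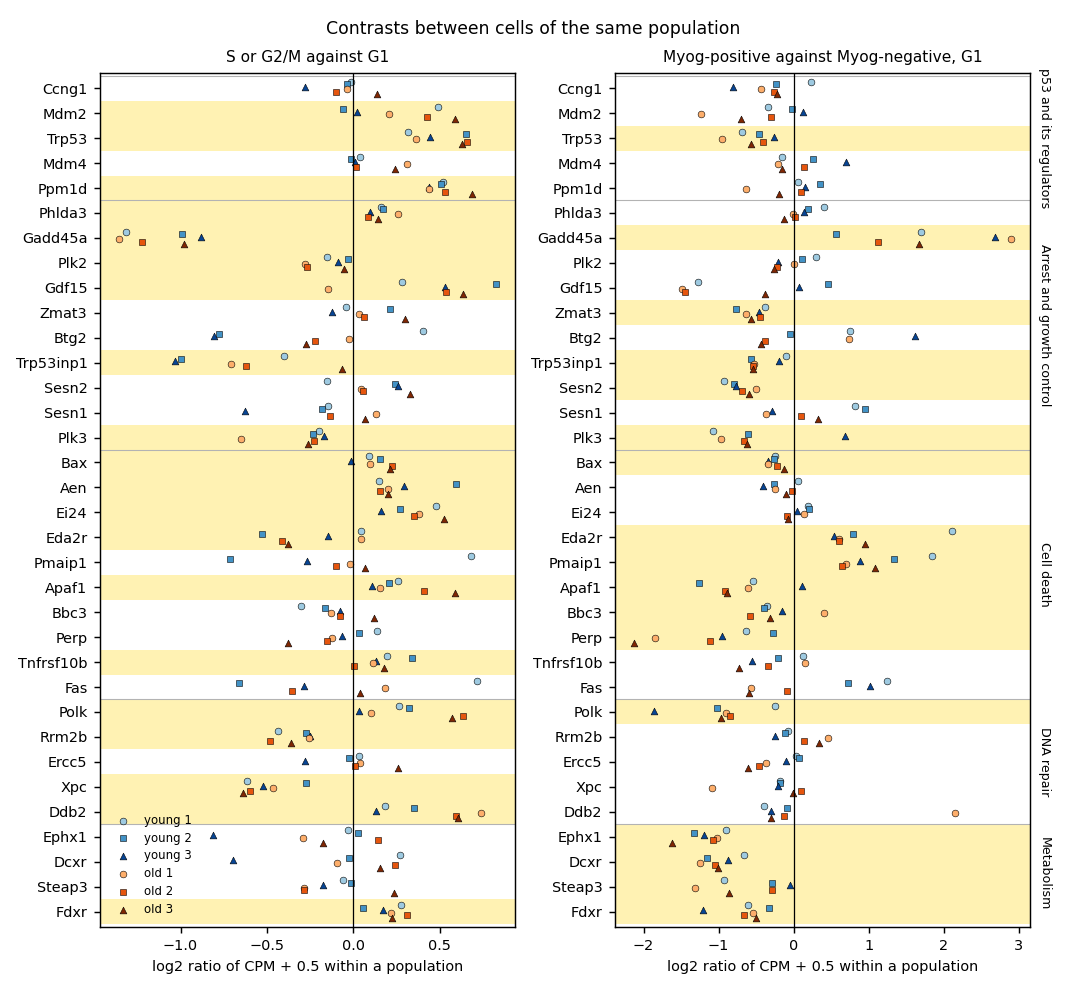
Log2 ratio of CPM + 0.5 between 2 classes of cells of the same population, 1 symbol per population: S or G2/M against G1 (left) and Myog-positive against Myog-negative G1-called cells (right). Yellow rows passed edgeR at an adjusted p under 0.05. Gadd45a lies left of 0 in the left panel and right of 0 in the right panel in all 6 populations, and Trp53 the reverse.

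Within a population, the r between single cells was weak but above 0 for each pair of Mdm2, Ccng1, Phlda3 and Bax in all 6 populations, and most pairs with Trp53 had a lower r. Cells were thinned to 5000 UMIs, and 7 members (Trp53, Mdm2, Ccng1, Phlda3, Bax, Aen and Plk2) and Cdkn1a had enough UMIs, a mean of 0.25 per cell in at least 4 populations. The values are Pearson correlations over 8444 to 12168 cells of a library and are given as a description. For all pairs of the 2514 genes with as many UMIs, the median was between -0.0001 and 0.0018 and the 99th percentile between 0.0836 and 0.1126. All are weak. The pairs compared were not matched for level. Per thinned cell Trp53 had 0.60 to 0.86 UMIs, Mdm2 0.27 to 1.65, Ccng1 0.59 to 1.77, Phlda3 0.82 to 2.32 and Bax 4.58 to 8.82. The part of level in these r values was not tested.

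Mdm2 and Cdkn1a gave the strongest single value. Their r was 0.209, 0.0726 and 0.146 in young 1 to 3 and 0.310, 0.0713 and 0.0193 in old 1 to 3. It was thus highest in old 1 and young 1, the 2 populations on the shorter list, followed by young 3 on the longer list, and near 0 in old 3. In G1-called cells alone it was 0.132, 0.0892, 0.144, 0.202, 0.0436 and 0.0316 in the same order, so young 3 was then above young 1. Mdm2 and Ccng1 were more even, from 0.0908 to 0.164, as were Ccng1 and Bax, from 0.0831 to 0.163. Phlda3 and Bax ranged from 0.0327 (young 2) to 0.195 (old 1).

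In G1-called cells alone, Mdm2 and Ccng1 gave 0.0920 to 0.151 and Ccng1 and Bax 0.0503 to 0.181, so both pairs stayed above 0 in all 6 populations. Phlda3 and Bax gave -0.0032 to 0.0965. Mdm2 and Bax had a median of 0.0397, compared with 0.0866 over all cells. In G1-called cells this pair was above the 95th percentile of all gene pairs of the population in old 2 (0.0500 against 0.0473) and old 3 (0.106 against 0.0636), and below it in the other populations.

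Pairs with Trp53 were mostly near 0. The widest were Trp53 and Bax, from -0.0136 (old 1) to 0.109 (old 3), and Trp53 and Cdkn1a, from -0.115 (old 2) to 0.0004 (old 1). Trp53 and Mdm2 gave -0.0083 to 0.0604, and Trp53 and Ccng1 -0.0012 to 0.0225. Bax and Cdkn1a changed sign between populations: 0.0504, -0.0401 and 0.0773 in young 1 to 3 and 0.0735, -0.103 and -0.152 in old 1 to 3. In G1-called cells alone it was 0.0130, -0.0950, -0.0410, -0.0135, -0.114 and -0.187 in the same order, below 0 in 5 of 6.

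**Figure D5:**
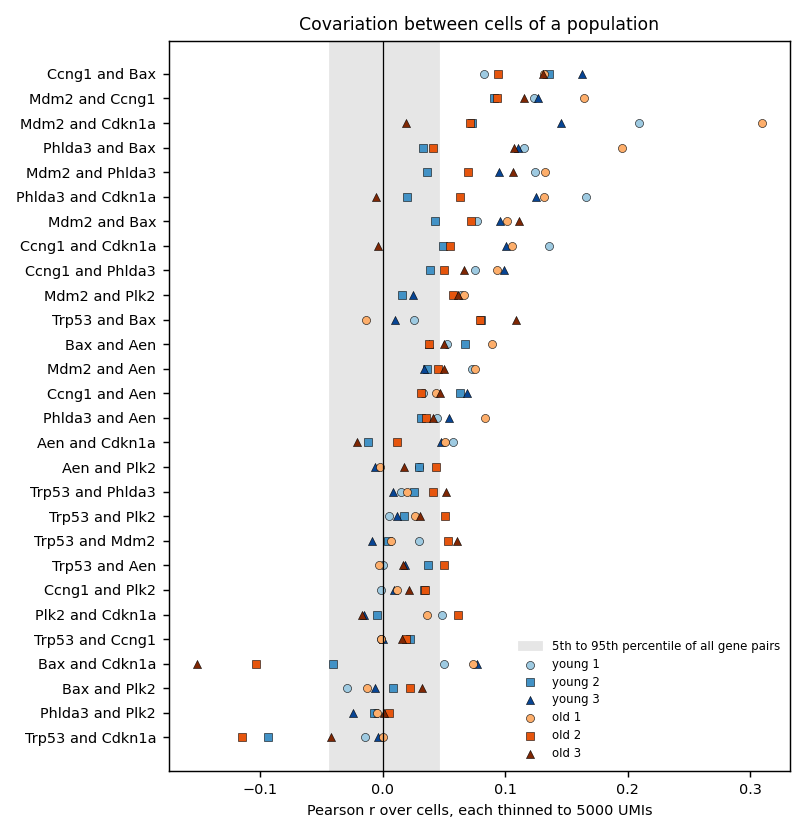
Pearson r over cells (horizontal axis), each cell thinned to 5000 UMIs, for every pair of 7 members and Cdkn1a, 1 symbol per population. The grey band is the range common to the 5th to 95th percentiles of all gene pairs, not matched for level, in the 6 populations. Pairs among Mdm2, Ccng1, Phlda3 and Bax lie mostly right of the band, and pairs with Trp53 mostly within it.

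Of 20 genes that act upstream of p53, edgeR called 0 between old and young (2 at an unadjusted p under 0.05, Cdkn2a and Hipk2) and DESeq2 called both. Cdkn2a, which encodes p16 and the Mdm2 inhibitor p19, was at 14.5, 12.7 and 6.74 CPM in young 1 to 3 and at 96.5, 31.1 and 529 CPM in old 1 to 3, higher in old without overlap (3.63% of all genes). The 3′ counts do not tell its 2 products apart. Lower in old without overlap were 3 of the 20, against 2.42% of all genes. Hipk2, a kinase that phosphorylates p53, was at 33.0, 59.1 and 89.6 CPM in young 1 to 3 and 18.6, 27.0 and 16.8 CPM in old 1 to 3 (log2 fold change -1.45, SE 0.35, edgeR unadjusted p = 0.00649, adjusted p = 1). The other two were the acetyltransferases Ep300 and Kat5, with smaller log2 fold changes of -0.28 (SE 0.18) and -0.24 (SE 0.21). Mdm2 was highest in old 1 and Cdkn2a in old 3, so the order of the populations differed between them. Of 16 further p53 targets 15 were tested, 12 of them above 0 with a median of 0.19, and 2 (Lif and Dram1) were higher in old without overlap. None was called by edgeR (2 at an unadjusted p under 0.05) or by DESeq2.

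In cycling cells 9 of the 20 upstream genes rose and 4 fell, compared with 23.1% and 29.9% of all genes. The checkpoint kinase genes Atm (0.77), Atr (0.77), Chek1 (2.65) and Chek2 (0.97) were among those that rose (log2 fold changes). Of the 15 further targets 4 rose and 3 fell. The 14 genes of the cell cycle that p53 represses indirectly, through p21 and the DREAM complex, rose in cycling cells as a matter of course (14 of 14, median 3.18). Between old and young 0 of them were called by edgeR (0 at an unadjusted p under 0.05) or by DESeq2, and 11 of 14 were below 0 (median -0.10). In Myog-positive cells 10 of the 14 fell, although only G1-called cells entered, so some difference in the cycle remained between the classes.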

How the data were processed

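The authors deposited, per sample, a sparse matrix of whole-number UMI counts per gene and barcode, made with Cell Ranger 7.0.0 (young 1, old 1; 21849 features) or 7.2.0 (the other 4; 32285 features), per the file headers. The submitters' processing notes name build mm10, Cell Ranger 7.2.0 and Seurat 5.134. The treatment of intronic reads is not given in the sources used here.

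Cells with at least 1000 UMIs, 500 genes and under 15% mitochondrial UMIs were kept. No doublet caller was run. Counts were summed per population, so the population was the replicate, and tested with edgeR 4.0.16 in R 4.3.3 (filterByExpr, TMM and a robust quasi-likelihood test; the model held gene list and group; two-sided; Benjamini-Hochberg over all genes tested, threshold 0.05). Populations may share more than the labels say, so p-values measure the spread between these 6. Phases were called with scanpy 1.11.5 from 43 S and 54 G2/M genes, none a member, on cells thinned to 5000 UMIs (60305 cells). The contrasts within populations used 2 sums per population, with the population as a block. DESeq2 1.42.0 was an alternative. SE was derived from the fold change and its F statistic. Each fit was checked on simulated counts. With 3 populations a group, 0 members called between old and young does not show that none differed.

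Chromosome shifts are the median deviation of a chromosome's genes in a population from their mean log2 level over all populations. Log2 levels with these shifts subtracted were tested with limma 3.58.1, with gene list and group in the model. Per-cell correlations used log1p counts of thinned cells.

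The members and gene lists were chosen with earlier results of these data known. Values in every population are given for Trp53, Mdm2, Mdm4, members without overlap, members apart in 1 population, the 5 of highest mean CPM and those called in cycling cells at an absolute log2 fold change of 0.5 or more, and for others singled out later. Gene positions are from GENCODE vM21 and promoter sequences from RefSeq (GRCm38.p6). Proteins and 8 promoters were not analysed here.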

Additional observations from a re-analysis of the deposited data

Results flagged for a closer look

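For 2 members the contrast between Myog-positive and Myog-negative G1-called cells ran one way in every young and the other way in every old population, as for 0.725% of all genes. Fas was higher in Myog-positive cells of young 1, 2 and 3 (log2 ratio 1.24, 0.72 and 1.02) and lower in those of old 1, 2 and 3 (-0.57, -0.10 and -0.60). The young Myog-negative cells held 3.30, 3.66 and 2.06 CPM of Fas and the old ones 8.08, 11.3 and 8.04 CPM, while Myog-positive cells held 8.48, 6.38 and 4.69 CPM and 5.28, 10.6 and 5.14 CPM. The groups thus overlapped in Myog-positive cells and not in Myog-negative ones. The difference, old minus young, was -1.43 (SE 0.31, edgeR unadjusted p = 0.000928, adjusted p = 0.98) and failed the adjustment over all genes. Rrm2b was slightly lower in Myog-positive cells of the young populations (-0.08, -0.12 and -0.25) and higher in those of the old (0.46, 0.14 and 0.34). Its difference was 0.42 (SE 0.19, edgeR unadjusted p = 0.0464, adjusted p = 1). The old 1 values rest on 43 Myog-positive cells and the young 3 values on 120 (median 11609 and 10290 UMIs per cell). With Fas at 5.28 and 4.69 CPM there, its ratios in these populations rest on few UMIs.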

How the results depend on the processing

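Between old and young, edgeR called 1 gene, 0 without the gene list term or on the longer list alone, and 2 with library totals. With chromosome shifts subtracted the fit was made with limma, which called 0. Leaving out each population in turn gave 0 to 3 genes, and 0 members each time. Without young 1 or old 1 the difference came from the longer-list populations alone, as in the fit on that list. DESeq2 called 180 genes higher and 39 lower, and 3 members. Members without overlap numbered 10 with library totals, where 5.02% of all genes had no overlap with old higher. Over every setting the median log2 fold change of the members stayed above 0 (0.28 to 0.52), while that of all genes ranged from -0.02 to 0.07. S-called cells against G1 gave 7 members higher, in place of 13, beside 2961 genes in place of 3082, and reversed Plk2 to 0.057 (from -0.15). Of the members called in cycling cells, 10 of 20 kept their call in every alternative, and of those called in Myog-positive cells 12 of 17.

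The replicate numbers were not shown to pair the populations: deviations of young and old with the same number correlated at 0.38, 0.21 and -0.08 for replicates 1, 2 and 3. The value of 0.38 was the highest of any young with any old population. Young 1 and old 1 also share their software version and gene list, which the check cannot tell from pairing. With the replicate block edgeR called 1 gene higher, 0 lower and 0 members. In the check of deviations young 2 correlated best with old 3 (0.27), and not with old 2, although old 2 correlated best with young 2 (0.21).

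The comparison of old with young rests on 3 populations a group. Myog-positive cells of old 1 (43 cells) were the thinnest class. Doublets were not removed, and leaving out the 8% deepest cells of each population, run for old against young only, left the same counts of genes called and of members without overlap there.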
